A study of Homo sapiens with 4 samples.

Results

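The mRNAs described here encode 32 enzymes and regulators of cholesterol and fatty acid synthesis, chosen by gene symbol out of 60676 genes counted. They comprise 16 membrane-bound enzymes, 10 soluble enzymes and 6 regulators. RNA came from the established human osteosarcoma line U2OS, grown in DMEM with fetal bovine serum, with no treatment named. A native nuclear RNA immunoprecipitation, which uses no crosslinking, was carried out with an antibody against LC3B (Cell Signaling), a ubiquitin-like protein attached to autophagosome membranes and also found in the nucleus. The 4 groups were the LC3B immunoprecipitate (IP, labelled pull-down in the plots), its LC3B input without antibody, the IgG IP with non-specific IgG (Millipore), and its IgG input without antibody. Each group was 1 library of polyadenylated RNA, made with the SMART-Seq v4 kit for very low RNA amounts, which leaves every difference unreplicated and without a p-value.

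Animal cells make cholesterol from acetyl-CoA, first with mostly soluble enzymes that lead through mevalonate to farnesyl diphosphate, then with enzymes held in the membrane of the endoplasmic reticulum. Palmitate is made by soluble enzymes in the cytosol and is desaturated and elongated by membrane enzymes. Many of these genes are switched on together by the SREBP transcription factors: SCAP carries their precursors to the Golgi for cleavage, and the INSIG proteins hold SCAP back when sterols are plentiful. Messages for membrane enzymes are translated at the endoplasmic reticulum, and those for soluble enzymes mostly in the cytosol.

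The promoters of 28 of the 32 genes had an entry in the RefSeq tables (GRCh38.p14), each covering 250 bases before the start site and some bases after it, and 8 of the 28 had several start sites. In all, 4 motifs were searched on both strands, and a match is a description of the letters only. The letters CCAAT, the box bound by NF-Y, which works with the SREBPs, stood in 21 of the 28 promoters, against 39.7% of all 27305 genes with an entry and 43.2% of the 10684 expressed here. The letters TCACNCCAC, a core of the sterol regulatory element, stood in 1 of the 28, that of SREBF2, against 1.39% of all genes and 1.4% of the genes expressed here. The E-box CACGTG stood in 5 of 28 against 8.77% of all genes and 12.5% of the genes expressed here. The GC box GGGCGG stood in 26 of 28 against 48.3% of all genes, and against 76.3% of the genes expressed here. The upstream stretches of 3 of the members called in the comparisons below are shown from the plus strand. Capitals mark CCAAT (written ATTGG where it lies on the other strand) and TCACNCCAC. The other called members with an entry differed among themselves: SCAP and CYP51A1 held neither match, while MVK, MVD, LSS and FADS2 held CCAAT. Members with no call, such as ACACA and DHCR7, held CCAAT too. The stretches shown are therefore no sign that the motifs go with a call. The stretches lie at chrX:48521558-48521798 for EBP, chr7:155297628-155297775 for INSIG1 and chr22:41832855-41833078 for SREBF2.
EBP: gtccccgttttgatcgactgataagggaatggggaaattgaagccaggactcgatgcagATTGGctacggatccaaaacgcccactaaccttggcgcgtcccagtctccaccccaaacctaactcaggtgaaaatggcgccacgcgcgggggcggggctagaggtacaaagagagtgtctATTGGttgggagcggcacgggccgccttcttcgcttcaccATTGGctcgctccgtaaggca
INSIG1: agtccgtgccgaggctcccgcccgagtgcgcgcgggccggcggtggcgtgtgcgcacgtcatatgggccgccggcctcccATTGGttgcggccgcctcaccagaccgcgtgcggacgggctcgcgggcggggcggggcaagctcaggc
SREBF2: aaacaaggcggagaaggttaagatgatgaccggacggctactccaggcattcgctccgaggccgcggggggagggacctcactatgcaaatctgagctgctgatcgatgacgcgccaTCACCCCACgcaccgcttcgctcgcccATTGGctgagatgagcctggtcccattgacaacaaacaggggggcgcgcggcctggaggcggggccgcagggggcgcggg
The EBP stretch held 3 such matches, the INSIG1 stretch 1 and the SREBF2 stretch 2.

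Total counts were 10456770 in the LC3B IP, 10782146 in the LC3B input, 10000914 in the IgG IP and 10886762 in the IgG input. Mitochondrially encoded RNA took 0.774% of the LC3B IP against 20.8% of the LC3B input, and 1.76% of the IgG IP against 22.8% of the IgG input, so levels were compared between libraries in CPM, the usual scaled count, with the total taken outside the mitochondrial chromosome. The IgG IP stood apart, with reads on 14440 genes (the LC3B IP over its own input does not use it), against 23915 in the LC3B IP and 23082 and 22947 in the LC3B and IgG inputs. A fold between libraries carries an exact conditional binomial 95% interval that covers counting error only, and PCR reads without molecular identifiers are not independent molecules. Calls of higher needed a lower bound of 2 or more, and calls of lower an upper bound of 0.5 or less. Calls were made over all 15431 genes averaging 1 CPM or more, 31 of the 32 members among them. TM7SF2, a sterol reductase, fell short with 5, 19, 0 and 10 reads in the LC3B IP, LC3B input, IgG IP and IgG input. The osteosarcoma label was met by 5 of 6 mesenchymal markers at 1 CPM or more in an input, with COL1A2 at 0 and 2 reads in the LC3B and IgG inputs. However, 5 of 11 markers of other cell types reached that level too. The highest of these was the epithelial marker EPCAM, at 15.0 and 18.2 CPM in the LC3B and IgG inputs. The mesenchymal marker ALPL stood at 18.8 and 19.6 CPM there. Those 11 markers summed to 27.9 CPM in the LC3B IP, 23.8 CPM in the LC3B input, 26.6 CPM in the IgG IP and 25 CPM in the IgG input, with CD3E, ALB and ADIPOQ at 0 in both inputs; their part in the results was not tested.

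As a class, and outside mitochondrial RNA, the 32 messages were recovered in both IPs at close to their share of the inputs. They took 0.547% of the non-mitochondrial reads in the LC3B IP (95% exact binomial interval 0.5428 to 0.5518), against 0.517% in the LC3B input (0.512 to 0.5216). In the IgG IP they took 0.567% (0.5627 to 0.5721), against 0.501% in the IgG input (0.4964 to 0.506). Both shares exceeded those of their inputs by more than counting error, and the IgG IP had the higher share. That order of the IPs rests on 1 gene, FDFT1, with 11162 of the 55740 member reads in the IgG IP and 7435 of 56782 in the LC3B IP. Without FDFT1 the LC3B IP would have the higher share. Mitochondrial RNA took 20.8% and 22.8% of the LC3B and IgG inputs, so totals that include it would widen the difference of each IP from its input. In such bulk libraries fewer cells with a message and less message per cell cannot be told apart, and a share cannot tell more of these RNAs from less of the others.

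The members' levels per transcript length differed widely. By the deposited TPM (a share of the library after division by transcript length), FDFT1, squalene synthase, was the most abundant, at 354 TPM in the LC3B input and at 332 TPM in the IgG input. FDPS, which makes farnesyl diphosphate, followed at 209 and 201 TPM in the LC3B and IgG inputs. The desaturase FADS1 averaged 161 TPM over the inputs, the sterol oxidase MSMO1 151, the sterol isomerase EBP 142 and the thiolase ACAT2 126. At the other end stood FASN, the fatty acid synthase, at 1.72 and 0.87 TPM in the LC3B and IgG inputs, and TM7SF2 at an average of 1.15. The lanosterol synthase LSS averaged 4.79 TPM and the mevalonate kinase MVK 4.17. None of the 31 members was called between the LC3B input and the IgG input, where 0.136% of all genes were called higher and 0.156% lower. Their input log2 differences ran from -0.19 to 0.44, with a median of 0.06 against 0.02 over all genes.

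**Figure D1:**
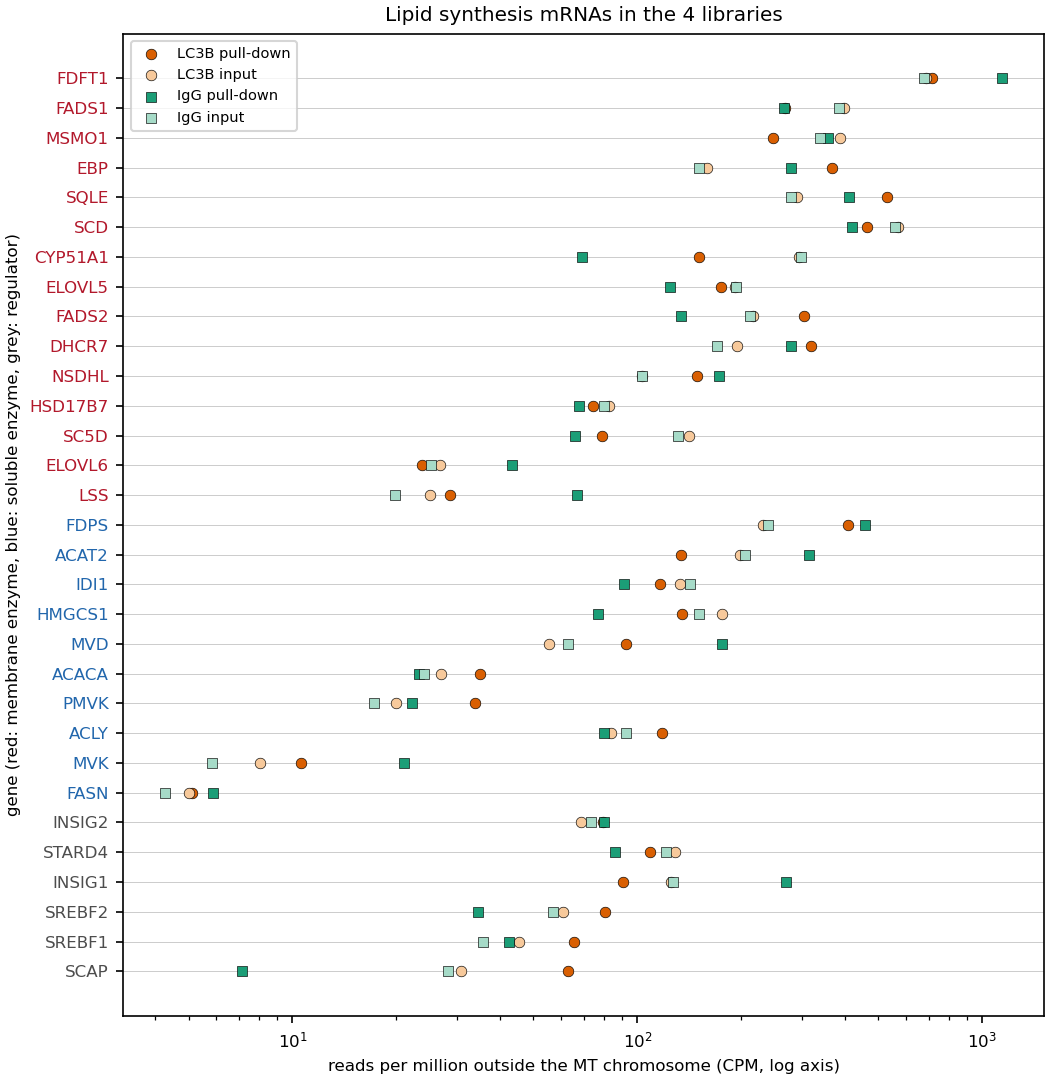
The horizontal log axis gives CPM outside the mitochondrial chromosome for 31 members, 1 row a gene, in the LC3B IP (dark circles), LC3B input (pale circles), IgG IP (dark squares) and IgG input (pale squares). The inputs differ most for MVK, by 1.39-fold, and among their own 4 values SCAP is lowest in the IgG IP, at 7.13 CPM, and EBP highest in the LC3B IP, at 366 CPM.

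Over the LC3B input, the LC3B IP held 1 member higher and 0 lower of 31, where 1.4% of all genes were called higher and 4.48% lower. That member was EBP, the isomerase of the late sterol pathway (X:48521799-48528716, plus strand, hg38). EBP had 366 CPM in the LC3B IP and 159 CPM in the LC3B input, and 278 CPM in the IgG IP and 151 CPM in the IgG input. It was highest in the LC3B IP, and both IPs lay above both inputs. Its fold was 2.3 (2.16 to 2.45) in the LC3B IP over the LC3B input, and 1.84 (1.72 to 1.97) in the IgG IP over the IgG input, which was not called. With mitochondrial reads in the totals EBP was called in the IgG IP too, at 2.35 (2.19 to 2.51), and by deposited TPM, at 2.17. Between the IPs, LC3B over IgG, EBP had a fold of 1.32 (1.25 to 1.38).

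Next in size over the LC3B input came SCAP at 2.04 (1.77 to 2.37), the squalene epoxidase SQLE at 1.82 (1.73 to 1.9), FDPS at 1.76 (1.67 to 1.85) and the phosphomevalonate kinase PMVK at 1.69 (1.4 to 2.04), none of which was called. At the low end stood CYP51A1, the lanosterol demethylase, at 0.515 (0.484 to 0.549), SC5D, a late sterol desaturase, at 0.561 (0.513 to 0.614), and MSMO1 at 0.641 (0.609 to 0.675). The members' median log2 difference was 0.19, with a range of -0.95 to 1.20, against a median of 0.01 over all genes. Scaled by totals that include mitochondrial RNA, SQLE, FDPS and SCAP were also called, and the median of all genes moved to 0.32.

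The IgG IP over the IgG input called 3 members higher and 2 lower of 31, where 9.69% of all genes were called higher and 33.6% lower. The higher ones were MVK and MVD, the kinase and the decarboxylase that act on mevalonate and its phosphates, and LSS, which closes the sterol rings. The lower ones were CYP51A1 and SCAP.

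MVK (12:109573255-109598125, plus strand) had 21.1 CPM in the IgG IP and 5.83 CPM in the IgG input, a fold of 3.61 (2.64 to 5.04). Its LC3B IP held 10.6 CPM and its LC3B input 8.08 CPM, a fold of 1.31 (0.963 to 1.8). The IgG IP thus held the most MVK, although the strand of counting is not given in the sources used here and MVK overlaps MMAB.
MVD (16:88651935-88663161, minus strand) had 176 CPM in the IgG IP and 63.1 CPM in the IgG input, a fold of 2.78 (2.52 to 3.07). Its LC3B IP held 92.5 CPM and its LC3B input 55.3 CPM, a fold of 1.67 (1.5 to 1.87). Both IPs lay above both inputs for this gene.
LSS (21:46188141-46228824, minus strand) had 66.8 CPM in the IgG IP and 19.9 CPM in the IgG input, a fold of 3.36 (2.83 to 4.01). Its LC3B IP held 28.7 CPM and its LC3B input 25.1 CPM, a fold of 1.15 (0.959 to 1.37). The IgG IP stood far above the other libraries.
CYP51A1 (7:92112153-92134803, minus strand) had 69.2 CPM in the IgG IP and 298 CPM in the IgG input, a fold of 0.232 (0.213 to 0.253). Its LC3B IP held 151 CPM and its LC3B input 294 CPM. Both IPs lay below both inputs, the IgG IP furthest. The 26 members with no call in this comparison had folds from 0.505 (0.458 to 0.557) for SC5D to 2.12 (1.98 to 2.28) for INSIG1.

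**Figure D2:**
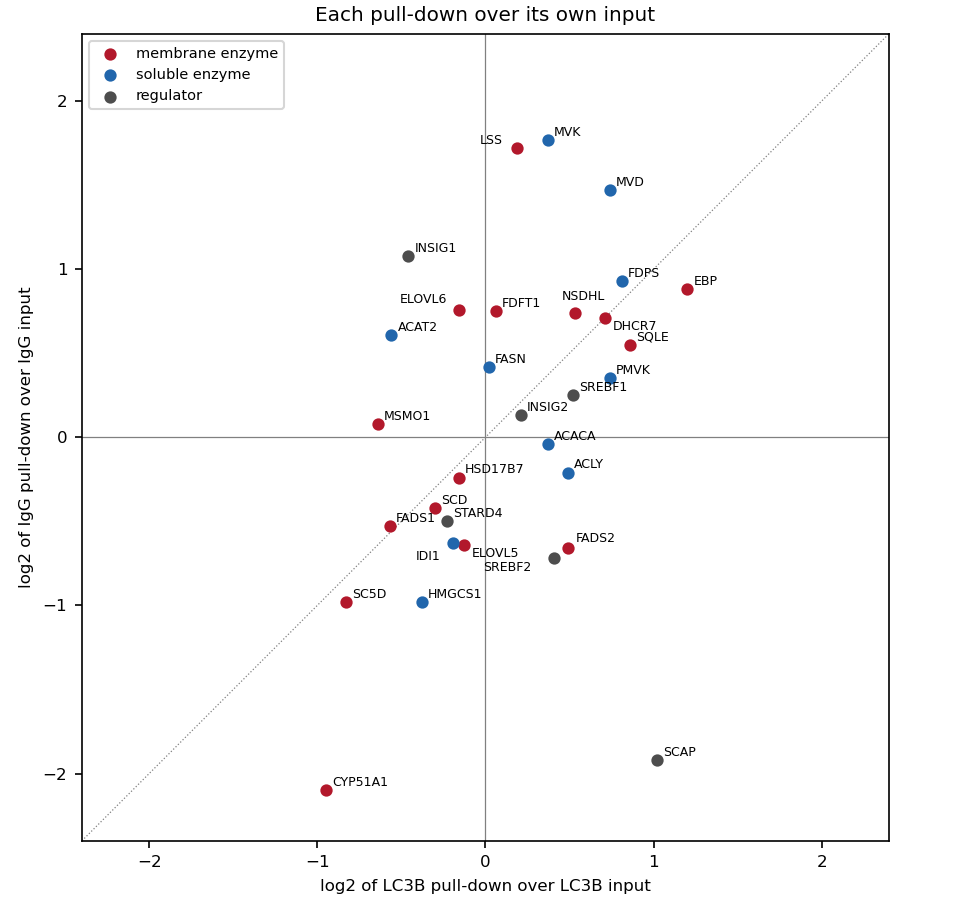
Each point is 1 of 31 members, with the log2 difference of the LC3B IP over its input on the horizontal axis and that of the IgG IP over its input on the vertical axis, coloured by class. SCAP lies furthest to the lower right, where FADS2, SREBF2, ACLY and ACACA also lie, INSIG1, LSS and MVK at the upper left or top, and CYP51A1 at the lower left.

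In the IgG IP over its input the members had a median log2 difference of 0.13, against -0.43 over all genes. The median was -0.21 over the 11237 genes within the members' range of average abundance, 5.08 to 804 CPM. These genes were not matched to the members within that wide range, so abundance may differ between the lists. No member was called higher over one input and lower over the other. Across the 31 genes, which are no replicates, the log2 differences of the IPs over their own inputs had a Pearson r of 0.35, against 0.2 over the genes in that range. The members' standard deviation was 0.57 in the LC3B comparison, against 0.7 for the genes in that range, and 0.94 in the IgG comparison, against 1.94. All 31 members had reads in the IgG IP, while 9.55% of the genes in that range, unmatched for abundance, had 0 reads there.

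Set against the IgG IP directly, the LC3B IP held 3 members higher and 3 lower of 31, where 33.8% of all genes were called higher and 9.45% lower. The higher ones were the regulators SCAP and SREBF2 and the desaturase FADS2. The lower ones were INSIG1, ACAT2 and LSS. The members' median log2 difference was 0.20, against 0.41 over all genes and 0.19 over the genes within the members' range of average abundance.

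Among the regulators, SCAP (3:47413681-47477126, minus strand) had 63.1 CPM in the LC3B IP and 30.9 CPM in the LC3B input, and 7.13 CPM in the IgG IP and 28.3 CPM in the IgG input. It was highest in the LC3B IP and lowest in the IgG IP, with the inputs between. Its fold was 8.86 (6.92 to 11.5) in the LC3B IP over the IgG IP and 0.252 (0.19 to 0.33) in the IgG IP over the IgG input. The deposited TPM went the other way in the IgG libraries, with SCAP at 12.7 TPM in the IgG IP and 8.02 TPM in the IgG input, a fold of 1.58. In TPM the LC3B IP held 19.7 and the LC3B input 9.15, so the LC3B over IgG fold was 1.56 on that scale and the call ended. SCAP had 655 reads in the LC3B IP and 70 reads in the IgG IP.

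SREBF2 (22:41833079-41907307, plus strand), the SREBP that acts mostly on cholesterol genes, had 80.8 CPM in the LC3B IP and 60.8 CPM in the LC3B input, and 34.5 CPM in the IgG IP and 57.1 CPM in the IgG input. Its fold was 2.34 (2.06 to 2.66) in the LC3B IP over the IgG IP. The order of the libraries was that of SCAP. The call was lost under median-of-ratios scaling, at 2.16 (1.9 to 2.46), and on thinning to the smallest total, at 2.26 (1.97 to 2.6).
SREBF1, whose products act mostly on fatty acid genes, had 65.4 CPM in the LC3B IP and 45.4 CPM in the LC3B input, and 42.6 CPM in the IgG IP and 35.8 CPM in the IgG input. Its fold between the IPs, LC3B over IgG, was 1.53 (1.36 to 1.74), not called, and SREBF1 overlaps RAI1.

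INSIG1 (7:155297776-155310235, plus strand), which holds SCAP in the endoplasmic reticulum, had 90.8 CPM in the LC3B IP and 125 CPM in the LC3B input, and 270 CPM in the IgG IP and 127 CPM in the IgG input. It was lowest in the LC3B IP and highest in the IgG IP, the reverse of SCAP. The fold was 0.336 (0.312 to 0.362) in the LC3B IP over the IgG IP, and 2.12 (1.98 to 2.28) in the IgG IP over the IgG input, just short of a call.
INSIG2, its close relative, had 79.3 CPM in the LC3B IP and 68.7 CPM in the LC3B input, and 79.9 CPM in the IgG IP and 73.2 CPM in the IgG input. Its 4 values lay close together, with a fold of 0.993 (0.899 to 1.1) in the LC3B IP over the IgG IP. STARD4, which moves cholesterol between membranes, had 109 CPM in the LC3B IP and 129 CPM in the LC3B input, and 85.9 CPM in the IgG IP and 121 CPM in the IgG input.

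Of the soluble enzymes, ACAT2 (6:159762045-159779112, plus strand), which makes acetoacetyl-CoA in the cytosol, had 134 CPM in the LC3B IP and 199 CPM in the LC3B input, and 314 CPM in the IgG IP and 205 CPM in the IgG input. Its fold was 0.429 (0.402 to 0.457) in the LC3B IP over the IgG IP, with the inputs between them. ACAT2 overlaps TCP1, which had 2480 reads in the LC3B IP and 2476 in the IgG IP.
FDPS had 409 CPM in the LC3B IP and 232 CPM in the LC3B input, and 457 CPM in the IgG IP and 239 CPM in the IgG input. Both IPs exceeded both inputs, with folds of 1.76 (1.67 to 1.85) for the LC3B IP and 1.91 (1.81 to 2.02) for the IgG IP over their own inputs. IDI1, the isomerase that makes the second isoprene unit, had 116 CPM in the LC3B IP and 133 CPM in the LC3B input, and 91.4 CPM in the IgG IP and 142 CPM in the IgG input.
The other soluble enzymes had LC3B over IgG folds from 0.503 (MVK) to 1.76 (1.61 to 1.92) for HMGCS1, which feeds the pathway with HMG-CoA. The fatty acid enzymes ACACA and ACLY, which supply malonyl-CoA and acetyl-CoA, were at 1.5 (1.26 to 1.77) and 1.47 (1.35 to 1.61). By deposited TPM the ACACA fold was 3.11, which met the call, and that of ACLY was 1.49. FASN had 53 reads in the LC3B IP, 43 in the LC3B input, 58 in the IgG IP and 36 in the IgG input, and its LC3B over IgG interval of 0.585 to 1.28 spans 1.

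Of the membrane enzymes, FADS2 (11:61792980-61867354, plus strand), the delta-6 desaturase, had 304 CPM in the LC3B IP and 216 CPM in the LC3B input, and 134 CPM in the IgG IP and 212 CPM in the IgG input. It was highest in the LC3B IP and lowest in the IgG IP, with a fold of 2.27 (2.13 to 2.42) between them, LC3B over IgG. Median-of-ratios scaling gave 2.1 (1.97 to 2.24) and the deposited TPM 1.49, neither of which met the call.
FADS1, its neighbour on the other strand, with which it overlaps, had 268 CPM in the LC3B IP and 398 CPM in the LC3B input, and 267 CPM in the IgG IP and 385 CPM in the IgG input. Both IPs lay below both inputs for FADS1, and its LC3B over IgG fold was 1.01 (0.954 to 1.06). FEN1 also overlaps FADS2, and reads of such pairs may be shared because the strand of counting is not given. In all, 10 members overlap another gene with at least 50 reads in a library. HSD17B7 has a near copy, HSD17B7P2, with 47 reads in the LC3B IP and 60 in the LC3B input. That copy had 0 reads in the IgG IP and 61 in the IgG input.
FDFT1 had 717 CPM in the LC3B IP and 688 CPM in the LC3B input, and 1140 CPM in the IgG IP and 678 CPM in the IgG input. Only its IgG IP stood above the rest. MSMO1 had 248 CPM in the LC3B IP and 387 CPM in the LC3B input, and 357 CPM in the IgG IP and 339 CPM in the IgG input.
LSS was the lowest of the membrane enzymes in LC3B over IgG, at 0.43 (0.374 to 0.494), and CYP51A1 among the highest at 2.19, its lower bound of 1.997 just missing the call. CYP51A1 was called with mitochondrial reads in the totals, at 2.21 (2.02 to 2.42), on thinning, at 2.25 (2.04 to 2.49), and by TPM, at 2.33. Outside these, the membrane enzymes had LC3B over IgG folds between 0.552 (ELOVL6) and 1.41 (ELOVL5), both of which lengthen fatty acids. By deposited TPM the ELOVL6 fold turned to 2.61. DHCR7 and SCD, a late sterol reductase and the stearoyl desaturase, were at 1.15 and 1.11, and NSDHL and HSD17B7, both sterol dehydrogenases, at 0.867 and 1.1.

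**Figure D3:**
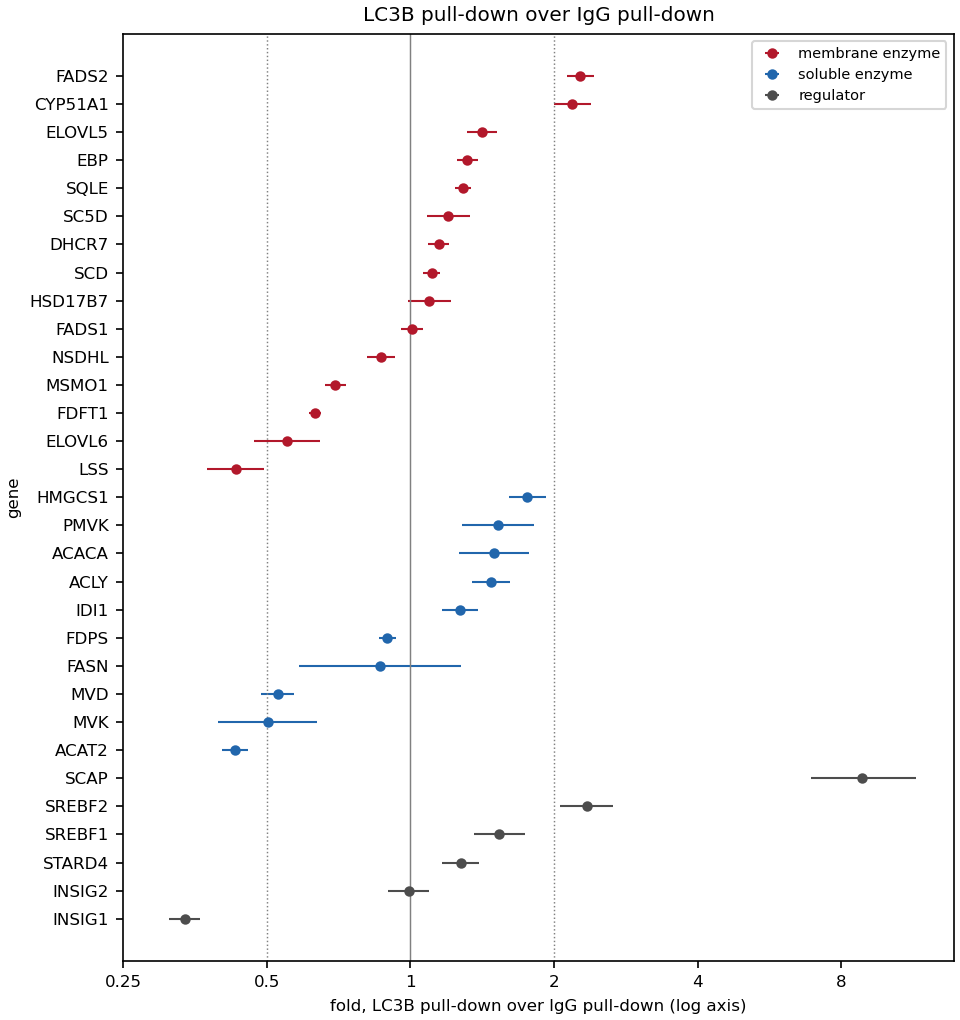
Fold of the LC3B IP over the IgG IP for 31 members by class (log axis), with the 95% counting interval as a bar and the call bounds of 0.5 and 2 as dotted lines. SCAP stands out at 8.86, FADS2 and SREBF2 lie past 2, and INSIG1, ACAT2 and LSS lie past 0.5.

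The comparison of membrane with soluble enzymes is a description of medians, since genes are no replicates. In the LC3B IP over its input the 15 membrane enzymes had a median log2 difference of -0.13 and the 10 soluble enzymes 0.37, a gap of -0.50 with overlapping ranges (-0.95 to 1.20 and -0.56 to 0.81). The gap was -0.31 in the IgG IP over its input, from 0.08 for the membrane enzymes and 0.39 for the soluble ones. Between the IPs, LC3B over IgG, it was 0.06, from 0.15 and 0.09. Between the LC3B input and the IgG input it was -0.01. The membrane minus soluble gap therefore had the same sign over both inputs and was near 0 between the IPs. Adding the regulators to the class of their protein left -0.24 in the LC3B IP over its input and turned the LC3B over IgG gap to -0.17, while TPM gave 0.36 for LC3B over IgG. In the IgG IP over its input the gap was -0.81 with the enzymes of several membrane spans only, whose median was -0.42. The 6 enzymes with a single or monotopic anchor went the other way there, with a median of 0.65 against 0.39 for the soluble enzymes. The sign of the gap in the IgG IP over its input was thus not shared by both kinds of membrane enzyme.
By number, 7 of 15 membrane enzymes and 7 of 10 soluble enzymes lay above the all-gene median in the LC3B IP over its input, and 10 of 15 and 8 of 10 in the IgG IP over its input. By step, the sterol enzymes had a median of 0.13 in the LC3B IP over its input and 0.63 in the IgG IP over its input. For the desaturases and elongases the medians were -0.16 and -0.53 in the same comparisons, and for the mevalonate enzymes 0.37 and 0.61. For the 3 soluble enzymes of fatty acid synthesis they were 0.37 and -0.04.

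Counts and the deposited TPM can be set against each other through the reads per TPM, which follows the transcript length assigned to the gene in that library if the TPM were made from these counts. In units of each library's median gene, this ratio for ELOVL6 was 0.512 in the LC3B IP and 2.03 in the LC3B input, against 2.63 in the IgG IP and 1.19 in the IgG input. By TPM, ELOVL6 was at 26.6 in the LC3B IP and 6.34 in the LC3B input, a fold of 4.2, where its counts gave 0.892 (0.742 to 1.07). ELOVL6 was thus higher in the LC3B IP by TPM, while its counts did not differ beyond counting error. For SCAP the ratio was 1.83 in the LC3B IP and 1.63 in the LC3B input, against 0.351 in the IgG IP and 1.66 in the IgG input. For ACACA it was 0.392 in the LC3B IP and 0.523 in the LC3B input, against 0.887 in the IgG IP and 0.453 in the IgG input.
A shift of this ratio by over 2-fold occurred in 1 of 31 members in the LC3B IP over its input, against 2.39% of genes. It occurred in 3 of 31 members in the IgG IP over its input, ELOVL6, SCAP and FASN, against 9.19% of genes. For FASN the ratio was 0.975 in the IgG IP and 2.31 in the IgG input, and its fold was 4.34 by TPM against 1.38 (0.894 to 2.15) by counts. Isoform use and the authors' length estimate cannot be told apart in these tables.

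**Figure D4:**
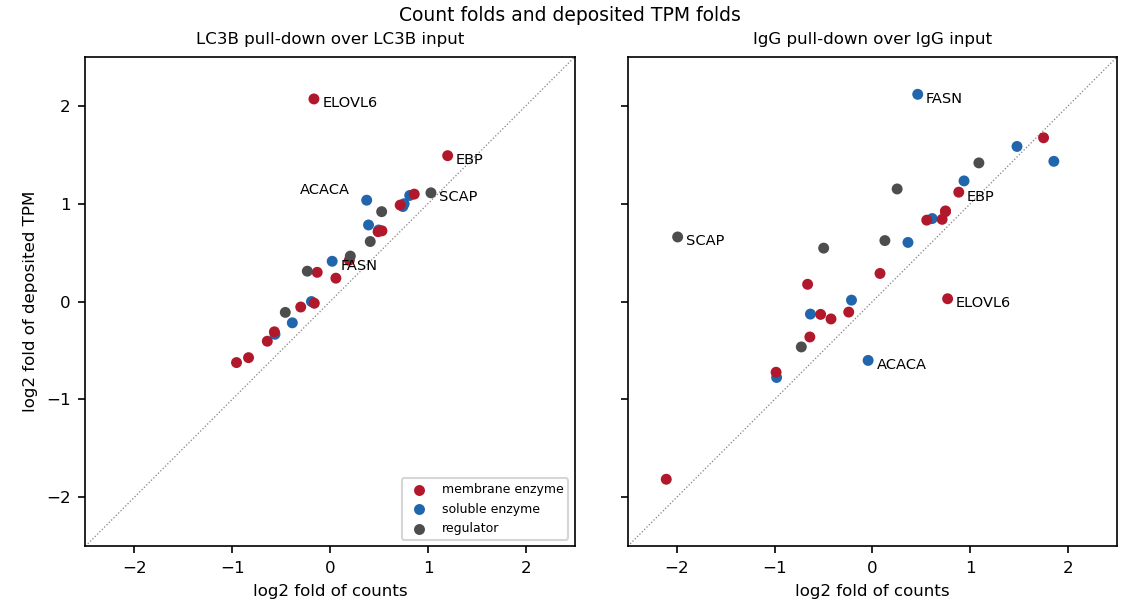
Log2 fold of counts (horizontal, scaled by totals outside the mitochondrial chromosome) against log2 fold of deposited TPM (vertical, scaled over the whole library) for 31 members, LC3B IP over its input on the left and IgG IP over its input on the right, coloured by class, with equality dotted. ELOVL6 lies far above the line on the left at a TPM fold of 4.2, and SCAP far above it on the right, where counts give 0.252 and TPM 1.58.

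Beyond the 31 members, 43 other genes of sterol handling, fatty acid activation and isoprenoid branches were examined. Over the LC3B input, the LC3B IP had 0 of these called higher and 2 lower, against 1.4% and 4.48% of all genes, namely COQ2 at 0.37 and FNTA at 0.41, which serve ubiquinone synthesis and protein farnesylation. Over the IgG input, 2 of the 43 were called higher and 12 lower in the IgG IP, both fewer than the 9.69% and 33.6% of all genes. Those higher were FNTB, the other farnesyltransferase subunit, at 2.56 (2.25 to 2.91) and STARD3, an endosomal cholesterol carrier, at 2.45 (2.07 to 2.91).
Of the 12 lower genes, 7 had 0 reads in the IgG IP. ACSL4, an acyl-CoA synthetase, had 178 reads in the LC3B IP and 212 in the LC3B input, against 0 in the IgG IP and 240 in the IgG input. With 3 reads as the floor and the input count taken as exact, it was at least 93.5-fold lower in the IgG IP than in its input. Counting error of the input is left out of this bound. The same bound was at least 63.5-fold for ELOVL7, 61.6-fold for RABGGTA, 45.6-fold for ACSL1, 41.3-fold for PDSS2, 38.2-fold for PRKAA2 and 7.01-fold for GPAM. OSBP, an oxysterol-binding protein, had 324 reads in the LC3B IP and 309 in the LC3B input, against 5 in the IgG IP and 257 in the IgG input. NPC1, which exports cholesterol from lysosomes, had 133 reads in the LC3B IP and 97 in the LC3B input, against 9 in the IgG IP and 104 in the IgG input. Both were near their input in the LC3B IP and far below it in the IgG IP. The remaining 3 were DGAT2 at 0.0252 (0.00299 to 0.0944), NUS1 at 0.185 (0.15 to 0.226) and HSD17B12 at 0.202 (0.168 to 0.242). In the LC3B IP over the IgG IP, 11 of the 43 were called higher and 3 lower, against 33.8% and 9.45% of all genes, with a median log2 difference of -0.04 against 0.41.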

How the data were processed

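The deposited tables hold raw read counts per Ensembl gene and TPM for 4 libraries, per the file headers. The TPM values were scaled within each library by the authors, with lengths that the sources used here do not state. The submitters' processing notes name STAR 2.7.1a, cutadapt 2.8 and build hg38. No counting tool or strand setting is given. Commas that grouped digits were removed, after which the deposited counts were whole numbers.

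Counts were scaled by totals without the mitochondrial chromosome. Genes averaging 1 CPM or more were kept. Folds had exact conditional binomial (Clopper-Pearson) intervals, and medians used log2 of CPM with 0.5 added. The ratio of the IPs' folds over their own inputs used counts plus 0.5, with a log-normal interval. Calculations used Python 3.11.15, NumPy 2.4.6, SciPy 1.17.1 and pandas 2.3.3, and were tested on simulated data. Members, classes and lists were chosen with earlier results of these data known. Values in all libraries were given for members called in any comparison, the 3 most abundant by input TPM in each enzyme class, and the regulators; of the other lipid genes, only those called over an input were named. Alternatives were totals with mitochondrial genes, TMM and median-of-ratios scaling in purpose-written code, thinning to the smallest total, a filter of 5 CPM, no filter, bounds of 4 and 0.25, point folds, deposited TPM, pseudocounts of 0.1 and 1, and other class borders.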

Additional observations from a re-analysis of the deposited data

Results flagged for a closer look

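For 7 members the counting interval of the fold over its own input lay wholly above 1 in one IP and wholly below 1 in the other. The value given is a ratio of folds, LC3B IP to LC3B input on top and IgG IP to IgG input below. It was 8.07 (5.97 to 10.9) for SCAP, 2.22 (2.03 to 2.44) for FADS2, 2.2 (1.84 to 2.62) for SREBF2 and 1.64 (1.43 to 1.87) for ACLY, which were above input in the LC3B IP and below it in the IgG IP. It was 0.343 (0.306 to 0.384) for INSIG1, 0.443 (0.404 to 0.486) for ACAT2 and 0.608 (0.566 to 0.653) for MSMO1, which were below input in the LC3B IP and above it in the IgG IP. With 1 library per group, these differences were not tested across samples. By deposited TPM, 3 of the 7 were above input in both IPs, namely SCAP, FADS2 (1.64 in the LC3B IP and 1.13 in the IgG IP) and ACLY (1.66 in the LC3B IP and 1.01 in the IgG IP). TPM were scaled over the whole library, mitochondrial RNA included, which raises folds over the inputs. The part of that scaling in these shifts was not tested. With mitochondrial reads in the totals, counts in the IgG IP over its input gave 0.32 for SCAP, 0.804 for FADS2 and 1.1 for ACLY. MSMO1 no longer met the condition under TMM scaling or on thinning, where its interval in the IgG IP over its input was 0.995 to 1.1. ACLY no longer met it with mitochondrial reads in the totals, where that interval was 0.992 to 1.21. IDI1 and ELOVL5 met it in addition under those totals, for 8 members in all. By deposited TPM, without intervals, IDI1, ELOVL5 and ACACA lay on opposite sides of 1 in addition, with 7 in all.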

How the results depend on the processing

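No paired analysis was possible because each group holds 1 library, and for the same reason no library could be left out. Members called in the LC3B IP over its input numbered 1, against 4 with mitochondrial reads in the totals, 0 with bounds of 4 and 0.25, 2 by point folds and 6 by deposited TPM. In the IgG IP over its input they numbered 5, against 9 with mitochondrial reads in the totals, 0 with the wider bounds and 9 by TPM. In the LC3B IP over the IgG IP they numbered 6, against 1 with the wider bounds. The membrane minus soluble gap moved to -0.24 with the regulators added in the LC3B IP over its input. In the IgG IP over its input it moved to -0.55 by TPM, -0.47 without a filter, -0.50 with LSS as a soluble enzyme and -0.81 with enzymes of several spans only. Between the IPs, LC3B over IgG, it moved to 0.36 by TPM, 0.33 with LSS as a soluble enzyme and -0.17 with the regulators added. Members called in opposite directions over their own inputs numbered 0, against 1, SCAP, with mitochondrial reads in the totals. By point folds SCAP passed both bounds too, at 2.04 in the LC3B IP and 0.252 in the IgG IP over their own inputs. The fold of SCAP in the IgG IP over its input was 1.58 by TPM, against 0.252 by counts; the cause was not tested. By TPM the fold of ELOVL6 was 2.61 in the LC3B IP over the IgG IP, against 0.552 by counts, and 4.2 in the LC3B IP over its input, against 0.892. Of 620 recomputed folds of single members, 21 gained a call in their own direction and 5 lost it without changing side of 1. In 3 more, all by TPM, the fold changed side and a call was gained or lost, as for SCAP in the IgG IP over its input. A further 119 moved without gaining or losing a call. In 15 of the 620, from members whose interval lay off 1, the fold moved to the other side of 1, 8 of these by TPM and 7 with mitochondrial reads in the totals. Totals with mitochondrial reads moved the median of all genes to 0.32 in the LC3B IP over its input and to -0.10 in the IgG IP over its input. Depth limited TM7SF2 most, with 0 to 19 reads a library, and among the 31 genes kept FASN, with 36 to 58.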

Other observations

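Genes named TMEM with a number, which encode membrane proteins, had median log2 differences of 0.15 in the LC3B IP over its input and -0.16 in the IgG IP over its input (176 genes). Solute carriers outside the SLC25 family had 0.13 and -0.76 in the same comparisons (193 genes). The medians over all genes were 0.01 and -0.43. These lists were added after the data were seen.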
